A study of Mus musculus with 16 samples.

Results

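The response of NFAT5 knockout macrophages to bacterial lipopolysaccharide (LPS) was described from 8 of the 16 arrays of the series. They were chosen by their titles, as the 4 arrays of LPS-treated knockout (KO) cells and the 4 arrays of unstimulated KO cells. The cells were macrophages grown from mouse bone marrow on a 129sv background, and each array held total RNA of 1 sample. The other 8 arrays held wild-type cells of the same background, 4 unstimulated and 4 treated with LPS, and were used for the spread and for a comparison of responses. The sources used here do not state the LPS dose, the time of exposure, the age and sex of the mice or the kind of Nfat5 allele. Whether a group's 4 arrays were separate mice or separate dishes is not labelled either. The p-values thus weigh a difference against the spread among arrays, which may be technical. Levels are log2 values, so a difference of 1 is a 2-fold change. A change is read only against the same gene's level in other arrays. Levels of different genes were compared in choosing arrays by Xist and Kdm5d. For some cell type and activation markers they stand side by side as a description.

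LPS is a component of the outer membrane of Gram-negative bacteria. It is handed by CD14 to the receptor TLR4, which signals along 2 routes. The adaptor MyD88 leads to the transcription factor NF-kB and to inflammatory cytokines, and the adaptor TRIF leads to interferon beta, which acts back on the cells and switches on antiviral genes. NFAT5 is a transcription factor related to NF-kB by its DNA-binding domain. It is best known for the response of cells to high salt and has also been described as a regulator of LPS target genes in macrophages.

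The 2 routes end on short DNA motifs, and promoter sequences of genes that rose in KO cells show both. The sequences are RefSeq's for build GRCm38.p6, read 5′ to 3′ on the strand of the gene and ending before the transcription start. The kappaB site bound by NF-kB was searched as GGGA, any 2 bases, TTCC, and the core of the interferon response element as GAAA, any 2 bases, GAAA, on both strands, and the matches are in capitals. In the promoters of Il6 (chr5:30013045-30013104, plus strand), Cxcl2 (chr5:90903777-90903837, plus strand) and Nfkbia (chr12:55492648-55492701, minus strand) the capitals mark kappaB sites. In Cxcl2, 2 overlapping matches on opposite strands form 1 block.
Il6: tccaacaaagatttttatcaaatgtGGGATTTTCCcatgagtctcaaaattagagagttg
Cxcl2: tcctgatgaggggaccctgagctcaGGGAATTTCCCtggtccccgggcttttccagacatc
Nfkbia: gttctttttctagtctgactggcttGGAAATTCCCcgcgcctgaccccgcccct
In Rsad2 (chr12:26456538-26456597, minus strand) and Ifit1 (chr19:34640760-34640838, plus strand) they mark the interferon element, with 2 matches in Ifit1.
Rsad2: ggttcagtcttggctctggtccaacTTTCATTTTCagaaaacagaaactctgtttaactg
Ifit1: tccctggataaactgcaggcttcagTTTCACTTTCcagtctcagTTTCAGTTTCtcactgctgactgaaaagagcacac
Cxcl10 (chr5:92349014-92349127, minus strand) and Gbp5 (chr3:142496744-142496891, plus strand) held 1 match of each kind, first the interferon element and then the kappaB site.
Cxcl10: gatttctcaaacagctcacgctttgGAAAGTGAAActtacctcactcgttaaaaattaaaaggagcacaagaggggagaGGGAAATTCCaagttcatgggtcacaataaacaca
Gbp5: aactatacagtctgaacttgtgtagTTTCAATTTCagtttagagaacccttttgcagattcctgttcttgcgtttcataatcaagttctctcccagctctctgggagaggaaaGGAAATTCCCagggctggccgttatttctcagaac

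Over the window from 250 bases before to 50 after the start, the interferon element stood in 605 of 15562 tested genes with a promoter (3.89%). It stood in 56 of the 534 such genes that rose at least 2-fold in KO cells (10.5%) and in 14 of the 475 that fell at least 2-fold (2.95%). Among 21 antiviral interferon-stimulated genes with a promoter, 11 held it. The kappaB site stood in 1.6% of the tested genes, in 3.93% of those that rose at least 2-fold and in 1.68% of those that fell. It stood in 4 of 15 measured chemokine genes with a promoter here, or 4 of the 11 that rose. It also stood in 3 of 17 NF-kB and IkB family genes and in 3 of 19 cytokine genes (2 of the 12 that rose). A sterol response element (ATCAC, any base, CCAC) stood in 0.231% of the tested genes and in 0 of 16 cholesterol synthesis genes. A cAMP response element (TGACGTCA) stood in 2.72% of the tested genes, 2.81% of those that rose at least 2-fold and 1.05% of those that fell. It stood in 1 of 18 early response genes. A match describes the letters of this window and is not shown to be a bound site.

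Before the results, the arrays were compared with each other. Array medians of the KO groups lay between 6.78 and 6.86, and correlations within a KO group between 0.981 and 0.996. The first principal component, with 69.3% of the variance, separated the treatments, and on the second, with 13.1%, both arrays numbered 4 stood apart (-26.4 and -30 against 3 to 15.5). These 2 arrays had Xist, the transcript of the inactive X chromosome, at 12.37 and 11.74 against 5.67 to 6.29 in the other 6, and the Y-linked Kdm5d at 5.47 and 5.53 against 7.36 to 8.46. All wild-type arrays were on the high Xist side, with means of 12.28 and 12.03. Genotype and sex-linked transcripts therefore largely coincide in comparisons with wild type, and their parts cannot be told apart beyond the values given below for the 10 arrays with Xist above Kdm5d. Nfat5 itself was at 8.93, 9.03, 9.20 and 8.99 in unstimulated KO cells and at 9.29, 9.29, 9.12 and 8.67 with LPS, which overlap (difference 0.05, exact two-sided permutation p = 0.743, where 4 against 4 arrays can reach 0.0286). Where its probes lie relative to the altered part of the gene is not known here, so this level is no check of the genotype. Of 9 macrophage markers, 4 rose and 2 fell, with a median change of -0.07. Their median level was 12.2 without LPS and 12.71 with it. The medians of 11 neutrophil, 10 T, B and NK cell and 7 mast cell markers lay between 4.76 and 5.78 in both groups, and 0 of the latter 17 were called, against 2 of the neutrophil markers. Osteoclast markers, at medians of 7.06 and 6.93, rose in 3 and fell in 1 of 7 cases. Dendritic cell markers, at 6.67 and 6.64, rose in 2 of 8, and erythroid and megakaryocyte markers, at 6.88 and 6.95, in 1 of 6. Over all genes, 12% were called higher with LPS and 12.7% lower. The part of these cell types in the results was not tested. Pdgfrb (a growth factor receptor of stromal cells) and Kdr (a receptor for vascular growth factor) rose by 3.16 and 2.46, while the other 9 of 11 stromal and endothelial markers, the collagens and Cdh5 among them, were not called. In bulk RNA, fewer cells of a type and less RNA per cell cannot be told apart.

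Of 19937 genes, 4919 were called (24.7% of those tested), 2394 of them higher with LPS (12%) and 2525 lower (12.7%), at an adjusted p under 0.05 by limma. Of these, 1254 changed at least 2-fold (6.29%), 670 upwards (3.36%) and 584 downwards (2.93%). A 4-fold change was passed by 202 and 84, and a 10-fold change by 50 and 7. The median change over all genes was 0.01. The groups did not overlap in 4938 genes (24.8%), with all LPS arrays above all unstimulated arrays in 2463 (12.4%) and below them in 2475 (12.4%). The strongest changes were thus more often rises than falls, while calls of any size were about evenly split. Among the arrays numbered 1 to 3 alone, 4717 genes were called, 4368 of them in common and in the same direction with the 4919 of all arrays. Counts of called genes in the lists below stand against 12% higher and 12.7% lower over all genes. Counts without overlap stand against 12.4% in each direction.

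The largest rise was that of Il6, the gene of interleukin-6, an inflammatory cytokine that drives fever and the acute phase response. Its level was 4.37, 4.42, 4.23 and 4.65 without LPS and 11.01, 10.90, 10.53 and 10.84 with LPS, an 84.5-fold rise (log2 6.40, SE 0.14). The lowest LPS array was 5.88 above the highest unstimulated one, while the arrays within a group spanned 0.42 and 0.48. Ptgs2, the inducible cyclooxygenase of prostaglandin synthesis, went from 6.92, 7.52, 7.19 and 7.61 to 13.06, 13.17, 12.89 and 12.86, or 51.4-fold. Cxcl10, a chemokine that attracts T cells and answers to interferon, went from 6.78, 7.97, 7.01 and 7.58 to 12.66, 12.53, 12.95 and 13.28, or 46-fold. The groups of both genes were wide apart. Cd69, an early activation receptor, rose 45.9-fold, Gbp5, an interferon-induced GTPase that assists inflammasome assembly, 32.5-fold, and Acod1, the enzyme that makes itaconate, 31.9-fold. Unstimulated array 1 had the lowest Cd69 (5.70 against 6.49 to 7.14), Acod1 (8.01 against 8.32 to 8.93) and Il1b (6.86 against 7.76 to 8.32), while the LPS arrays of these genes spanned 0.15, 0.15 and 0.1. The largest rises further held those of the acute phase protein Saa3 (24.6-fold), of prostaglandin E synthase Ptges (20.6-fold), of the chitinase-like Chil1 (19.4-fold) and of Gpr84, a receptor for medium-chain fatty acids (18.3-fold).

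**Figure D1:**
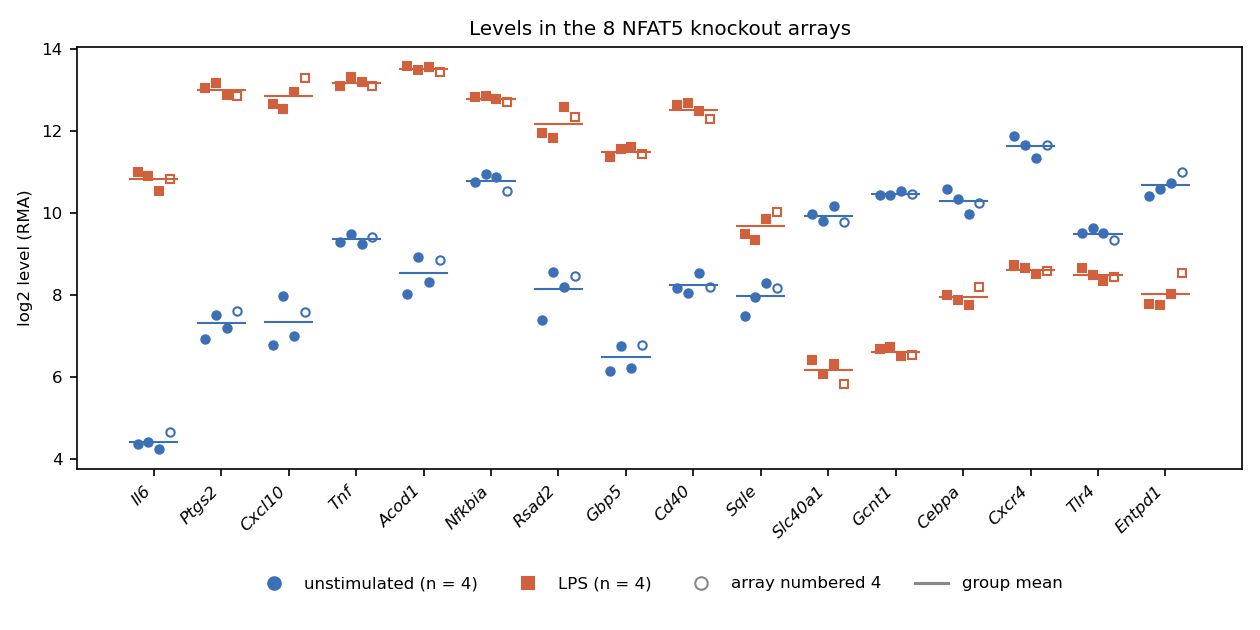
Log2 levels (RMA values) of 16 genes in the 8 KO arrays, with 1 point per array, lines at the group means and open symbols for the arrays numbered 4. In every gene drawn the LPS and unstimulated groups are separate, from Il6 (4.42 to 10.82 on average) to Gcnt1 (10.46 to 6.62).

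The largest fall was that of Gcnt1, which builds branched O-glycans used in cell adhesion. It went from 10.43, 10.43, 10.53 and 10.46 to 6.69, 6.73, 6.50 and 6.54, a 14.4-fold fall (log2 -3.85, SE 0.10), and the unstimulated arrays spanned 0.1. Slc40a1, which encodes ferroportin, the exporter of iron from cells, went from 9.98, 9.81, 10.17 and 9.78 to 6.42, 6.06, 6.31 and 5.84 (13.7-fold). The highest LPS array lay 3.7 and 3.36 log2 units below the lowest unstimulated array in Gcnt1 and Slc40a1. Cd28, a costimulatory receptor best known from T cells, fell 11.9-fold, although the T cell genes Cd3e and Cd3g were at 7.33 and 5.11 without LPS and were not called. Abcd2, a peroxisomal carrier of very long fatty acids, fell 11.3-fold, and Arhgap18 11-fold. The next falls were those of the ubiquitin ligase Rnf144b (10.5-fold), the lysosomal carrier Slc46a3 (9.58-fold) and Rasgrp3, an activator of Ras (9.26-fold). Rasgrp3 was spread among unstimulated arrays, at 9.97, 9.29, 7.99 and 8.50, and its LPS arrays at 6.44, 5.66, 5.64 and 5.16 stayed below all of them. The chemokine receptor Cxcr4, which holds cells in the bone marrow, fell from 11.87, 11.65, 11.35 and 11.65 to 8.73, 8.66, 8.50 and 8.59. Rgs2, which dampens G protein signals, fell 7.95-fold, the sialyltransferase St6gal1 7.84-fold and the translation inhibitor Pdcd4 7.28-fold.

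Genes of the LPS receptor and its signal chain moved both ways. Of 22 measured, 12 rose and 4 fell, with a median change of 0.63 against 0.01 over all genes. Cd14, the coreceptor that hands LPS on, rose from 10.05, 10.81, 10.62 and 10.86 to 12.57, 12.53, 12.58 and 12.76 (4.08-fold). Tlr4, the LPS receptor itself, fell from 9.51, 9.63, 9.52 and 9.34 to 8.65, 8.49, 8.34 and 8.43 (2.03-fold). Coreceptor and receptor thus moved in opposite directions without overlap, and Ly96, the TLR4 partner MD-2, was at 11.42 and 11.30 and not called. The adaptors Myd88 (2.5-fold), Ticam1, which encodes TRIF (1.64-fold), and Ticam2 (1.8-fold) rose. So did Tlr2 and Tlr1, receptors of bacterial lipoproteins (2.04-fold and 3.58-fold), Tlr3, a sensor of double-stranded RNA (2.41-fold), and Irak3, a kinase-like inhibitor of the chain (4.03-fold). Besides Tlr4, the falls were those of Tlr13, a sensor of bacterial ribosomal RNA (2.19-fold), Cd180, a TLR4 relative (1.48-fold), and Tlr8 (1.35-fold).

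All 20 measured NF-kB and IkB family genes rose, with a median of 1.43 against 0.01 over all genes. In 18 the groups did not overlap, against 12.4% of all genes without overlap and higher with LPS. Nfkbia, the inhibitor that holds NF-kB in the cytoplasm and carries the kappaB site shown above, went from 10.77, 10.95, 10.89 and 10.53 to 12.83, 12.85, 12.77 and 12.70 (4.01-fold). Tnfaip3, the ubiquitin-editing inhibitor A20, went from 8.10, 8.74, 8.81 and 8.90 to 11.32, 11.28, 11.32 and 11.26 (6.31-fold). The LPS arrays spanned 0.15 for Nfkbia and 0.06 for Tnfaip3, less than the unstimulated arrays did. Traf1, an adaptor of TNF receptors, rose 14.9-fold, Nfkbiz, a nuclear cofactor needed for Il6, 7.31-fold, and the inhibitors Nfkbie and Tnip1 5.31-fold and 4.45-fold. Among the NF-kB subunits, Nfkb2 rose 4.09-fold, Rel 2.3-fold, Relb 2.27-fold and Rela 1.79-fold.

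Of 26 cytokine genes, 15 rose, each by at least 2-fold, and 0 fell. Il1a and Il1b, which encode both forms of interleukin-1, rose 32-fold and 30.4-fold, and Il12b and Il12a, which encode the subunits of interleukin-12, 14.9-fold and 3.75-fold. Tnf, the tumour necrosis factor gene, went from 9.29, 9.48, 9.24 and 9.41 to 13.11, 13.31, 13.20 and 13.09 (14.1-fold) and spanned 0.24 and 0.22 within the groups. Tnfsf9, a ligand that costimulates T cells, rose 11.6-fold. Il27 and Ebi3, which encode the parts of interleukin-27, rose 4.85-fold and 4.8-fold, Il18, of the interleukin-1 family, 4.56-fold, and Csf1, the macrophage growth factor, 4.51-fold. The receptor antagonist Il1rn rose 4.43-fold and Il15, a growth factor of NK cells, 3.12-fold. Not called were Ifnb1, the gene of interferon beta (5.56 and 5.77), Il10, an anti-inflammatory cytokine (6.64 and 6.55), and the colony-stimulating factors Csf2 (4.89 and 5.27) and Csf3 (6.36 and 6.72). Csf2 was called when the 8 KO arrays were fitted alone (limma adjusted p = 0.00855).

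Of 23 chemokine genes, 17 rose and 1 fell, with a median change of 1.45. The neutrophil attractants rose by 22.2-fold for Cxcl2, 18.5-fold for Cxcl3 and 12.8-fold for Cxcl1. Cxcl2 went from 7.96, 8.64, 8.66 and 8.78 to between 12.91 and 13.05, so its LPS arrays spanned 0.14. The T cell attractants Cxcl9, which like Cxcl10 binds CXCR3, and Ccl5 rose 16.4-fold and 20.2-fold, and Ccl3 and Ccl4 11.1-fold and 10.6-fold. The monocyte attractants Ccl2 and Ccl7 rose 5.26-fold and 4.38-fold. Ccl6 fell 1.64-fold, and Cxcl5, Ccl17 and Ccl24 were not called. Among 11 chemoattractant receptors, the chemerin-binding Ccrl2 rose 10.1-fold and the C5a receptor C5ar1 2.08-fold, while Ccr2, the receptor of Ccl2, fell 2.76-fold.

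All 29 measured antiviral interferon-stimulated genes rose, 27 of them at least 2-fold. In all 29 the groups did not overlap, against 12.4% of all genes without overlap and higher with LPS. The median change was 1.72. Rsad2, which encodes the antiviral enzyme viperin, went from 7.39, 8.56, 8.18 and 8.47 to 11.96, 11.82, 12.59 and 12.34 (16.3-fold). Ifit1, which binds viral RNA, went from 8.72, 9.42, 8.97 and 9.46 to 12.31, 12.12, 12.59 and 12.64 (9.65-fold). In both genes unstimulated array 1 was lowest and the groups were 3.26 and 2.66 log2 units apart. Mx1 and Mx2, dynamin-like GTPases that block viruses, rose 12.7-fold and 8.71-fold, Ifit2 11-fold and Cmpk2, a nucleotide kinase, 8.68-fold. Ifih1 and Ddx58, the cytoplasmic sensors of viral RNA, rose 6.27-fold and 3.16-fold, and Zbp1, a sensor of nucleic acids that can start cell death, 5.97-fold. Usp18, the brake on the interferon receptor, rose 8.72-fold. The smallest rise was that of Irf9 (1.33-fold), the DNA-binding part of the factor that reads the interferon element. Of 8 guanylate-binding proteins and related GTPases, 7 rose, with Gbp3 and Gbp7 at 11.3-fold and 9.22-fold and Irgm1, which acts on vacuoles with microbes, at 4.25-fold.

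Among 14 IRF and STAT factors, 7 rose and 4 fell. Irf1, Stat2 and Irf7, which drive interferon genes and the response to them, rose 3.18-fold, 3.08-fold and 2.85-fold. A second, dimmer probe set of Irf1 rose by 0.61 on the log2 scale against 1.67 for the one shown. Irf8, needed for the macrophage and dendritic cell lines, fell from 11.01, 11.10, 11.13 and 11.47 to 9.62, 9.87, 9.72 and 10.06 (2.57-fold), and Irf4, which acts in alternative activation, fell 2.1-fold. Irf3, which TRIF activates without new transcription, was at 8.49 and 8.61 and not called.

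Genes of antigen presentation by MHC class I rose in 11 of 14 cases, with 0 falls and a median of 0.87. The peptide pumps Tap1 and Tap2 rose 3.96-fold and 2.92-fold, and the immunoproteasome subunits Psmb10, Psmb8 and Psmb9 2.86-fold, 2.58-fold and 1.98-fold. Of 11 MHC class II genes, 4 rose and 1 fell: H2-Ab1, which encodes a chain of the class II molecule, rose 1.67-fold, and Ifi30, a reductase that prepares antigens, fell 2.19-fold. Without unstimulated array 4 or LPS array 1, 2 class II genes fell. Ciita, the master activator of class II genes, was at 7.24, 7.40, 7.90 and 7.54 without LPS and at 7.35, 7.31, 7.44 and 7.33 with LPS. These groups overlapped and Ciita was not called. Of 16 costimulation and checkpoint genes, 9 rose and 2 fell. Cd40, the receptor through which T cells activate macrophages, went from 8.18, 8.06, 8.53 and 8.19 to 12.64, 12.68, 12.49 and 12.29 (19.5-fold). Icosl, a ligand for ICOS on T cells, rose 6.14-fold, Cd274, which encodes the inhibitory ligand PD-L1, 5.23-fold, and Cd83 3.73-fold. The checkpoint genes Havcr2 (TIM-3) and Vsir (VISTA) fell 2.84-fold and 3.06-fold.

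**Figure D2:**
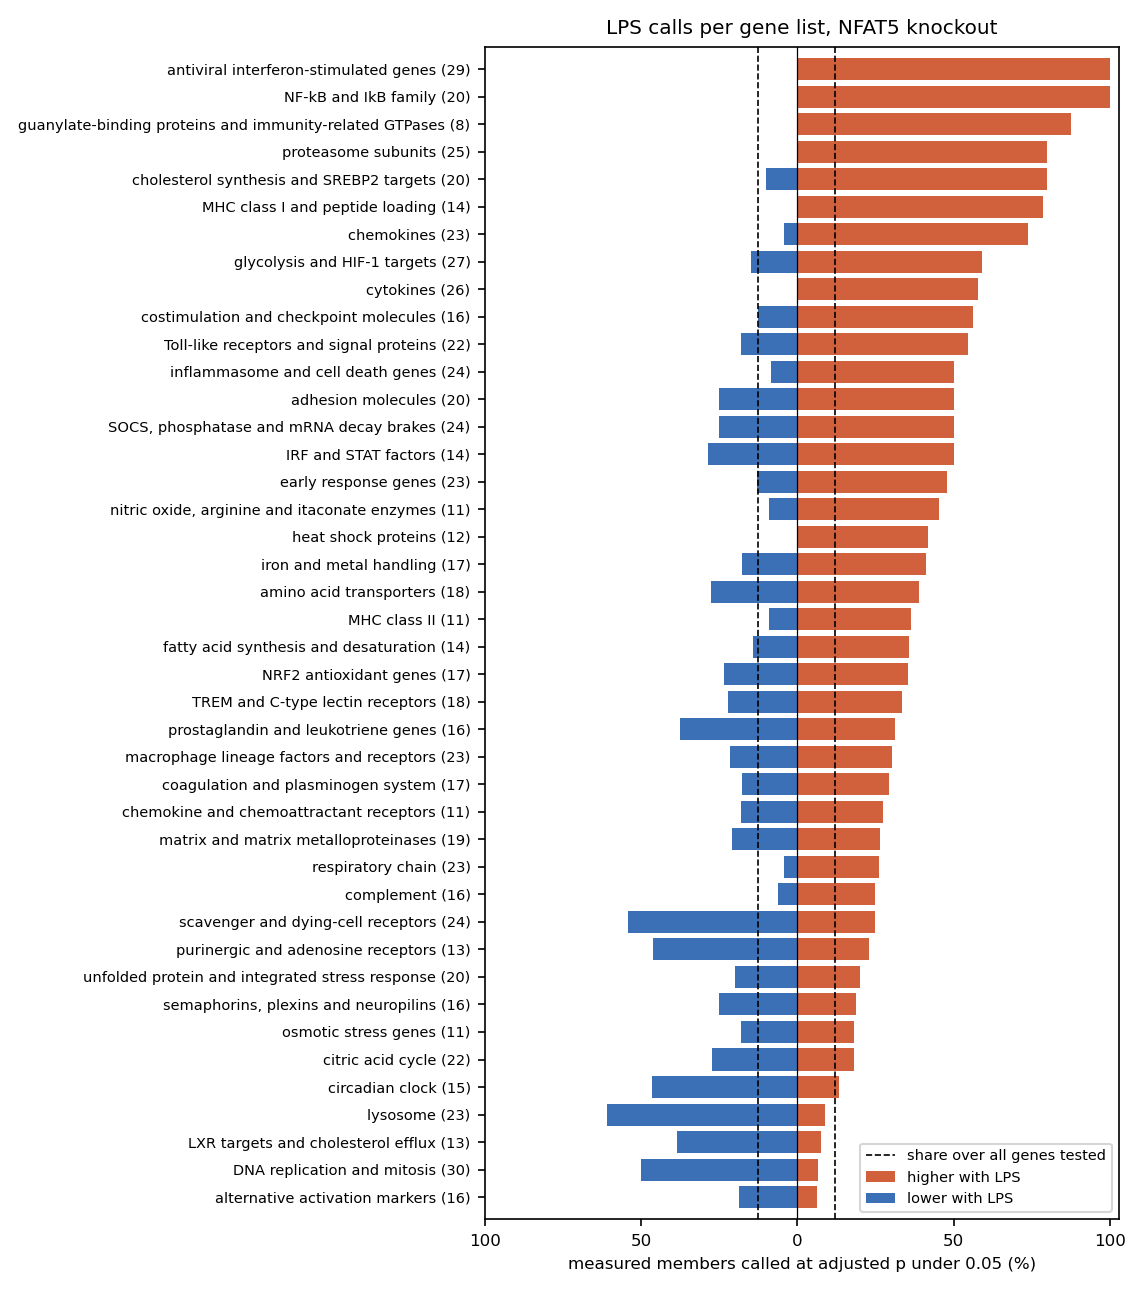
Share of the measured members of 42 gene lists called higher (right) or lower (left) with LPS in KO cells, in percent, with the number measured in brackets. Dashed lines mark the shares over all genes tested, 12% higher and 12.7% lower. The NF-kB and antiviral lists reach 100% on the right, and the lysosome, scavenger receptor and cell cycle lists extend farthest to the left.

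Brakes on signalling rose in 12 and fell in 6 of 24 cases, against 12% and 12.7% of all genes. Socs3, which inhibits the signal of interleukin-6, went from 8.05, 7.58, 7.20 and 7.94 to 10.87, 10.58, 11.00 and 11.08 (9.14-fold), with no overlap, and by 1.64 on the log2 scale in a second probe set. The RNases Zc3h12c and Zc3h12a, which degrade cytokine messages, rose 6.28-fold and 2.85-fold, and Zfp36, which marks such messages for decay, 1.53-fold, while its relatives Zfp36l1 and Zfp36l2 fell 4.41-fold and 2.78-fold. The MAP kinase phosphatases Dusp2 and Dusp16 rose 4.72-fold and 3.69-fold, and Dusp7 and Dusp6 fell 3.52-fold and 1.87-fold. Of 23 early response genes, 11 rose and 3 fell, with a median of 0.5. Ets2 rose from 8.57, 8.98, 9.18 and 8.69 to 11.67, 11.68, 11.69 and 11.71, and Fos, a part of AP-1, fell from 8.67, 8.47, 8.59 and 8.30 to 7.94, 7.64, 7.55 and 7.48. Neither gene overlapped between the groups. Junb (2.12-fold), Maff (2.42-fold) and Myc (1.68-fold) rose and Jun fell 1.55-fold, while Myc was not called among the arrays numbered 1 to 3 (0.57, limma adjusted p = 0.0637).

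Inflammasome and cell death genes rose in 12 and fell in 2 of 24 cases. Nlrp3, the sensor of the best-known inflammasome, rose 6.75-fold, the proteases Casp4 and Casp1 3.6-fold and 2.3-fold, and the pore-forming Gsdmd 2.09-fold. Mlkl, which carries out necroptosis, rose 5.03-fold and Fas, a death receptor, 5.18-fold, beside Cflar, an inhibitor of that receptor's signal, at 3.85-fold. Pycard, the adaptor ASC between sensor and Casp1, fell 1.62-fold.

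In the prostaglandin path, Pla2g4a, which releases arachidonic acid, rose 3.48-fold beside Ptgs2 and Ptges. Hpgds and Tbxas1, which make prostaglandin D2 and thromboxane, fell 4.15-fold and 3.58-fold, and Lta4h and Alox5ap of leukotriene synthesis 2.44-fold and 2.13-fold. Of 16 genes of this list, 5 rose and 6 fell. Nos2, the inducible nitric oxide synthase, was at 6.88, 6.67, 6.54 and 6.90 without LPS and 7.80, 7.82, 7.91 and 8.67 with LPS (2.47-fold). Array 4 was the highest of its LPS group. The arginine carriers Slc7a2 and Slc7a1 rose 8.22-fold and 2.48-fold and Gch1, which makes a cofactor of nitric oxide synthase, 4.88-fold, while the arginases Arg1 and Arg2 were not called. Arg2 was called when the 8 KO arrays were fitted alone (0.58, limma adjusted p = 0.0154).

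Glycolysis genes and targets of the hypoxia factor HIF-1 rose in 16 and fell in 4 of 27 cases. The glucose carriers Slc2a1 and Slc2a6 rose 4.41-fold and 4.71-fold, the lactate exporter Slc16a3 3.94-fold, Pfkl of glycolysis 2.92-fold and Hif1a 2.25-fold, and the carrier Slc2a3 fell 1.95-fold. The count of falls was 2 without unstimulated array 2, LPS array 1 or LPS array 3. Citric acid cycle genes rose in 4 and fell in 6 of 22 cases, with Idh1 and Idh2, isocitrate dehydrogenases that make NADPH, lower by 2.31-fold and 2.07-fold. Of these, 2 rises were called without unstimulated array 1 and 1 without LPS array 1 or 2. Of 23 respiratory chain genes, 6 rose and 1 fell, against 12% and 12.7% of all genes. Their count of rises was 3 without unstimulated array 3, without LPS array 1 or among the arrays numbered 1 to 3. Antioxidant genes rose in 6 and fell in 4 of 17 cases. Sod2, the mitochondrial superoxide dismutase, went from 10.68, 10.90, 10.78 and 10.92 to 13.17, 13.09, 13.25 and 13.12 (5.04-fold), and the cystine carrier Slc7a11 rose 15-fold, while Gpx1 and Cat, which destroy peroxides, fell 1.45-fold and 1.47-fold. The LPS arrays of Sod2 spanned 0.16. In the iron list, 7 of 17 rose and 3 fell: the ferroxidase Cp rose 13.4-fold and Lcn2, which binds bacterial siderophores, 9.96-fold, opposite in direction to the exporter Slc40a1. Of 25 proteasome subunits, 20 rose and 0 fell, by a median of 0.56, with the most for Psma6 (2.79-fold). Among 11 osmotic stress genes, for which NFAT5 is best known, 2 rose and 2 fell, near the 12% and 12.7% of all genes. The rises were those of the amino acid carrier Slc38a2 (2.23-fold), whose groups overlapped, and of the chaperone Hspa1a (2-fold).

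Cholesterol synthesis genes rose in 16 and fell in 2 of 20 cases, with a median of 1.06, and in the 10 arrays with Xist above Kdm5d 9 rises were called. Sqle, squalene epoxidase, went from 7.48, 7.96, 8.29 and 8.16 to 9.49, 9.35, 9.86 and 10.02 (3.27-fold). Cyp51 rose 3.09-fold, Fdft1, which makes squalene, 2.83-fold, Hmgcs1, at the start of the path, 2.51-fold, and Srebf2, which encodes the factor that drives the path, 2.29-fold. The unstimulated array 1 was lowest for Sqle and no array overlapped between the groups. Dhcr7, which acts at the last step, fell 1.35-fold. Without unstimulated array 2 or LPS array 3, 1 fall was called. Of 14 fatty acid genes, 5 rose and 2 fell, against 12% and 12.7% of all genes, with Acsl5 3.42-fold up and the desaturase Fads1 3.04-fold down. Among 13 LXR targets and efflux genes, 1 rose and 5 fell, against 12% and 12.7% of all genes. Nr1h3, which encodes the receptor LXR alpha itself, rose 3.18-fold. The cholesterol exporters Abcg1 and Abca1 and the hydrolase Nceh1 fell 2.22-fold, 1.59-fold and 4.69-fold. The other 7 LXR and efflux genes were not called.

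Falls were most frequent among lysosome, scavenger receptor and cell cycle genes. Of 23 lysosome genes, 14 fell and 2 rose, with a median of -0.34. Atp6v0d2, a subunit of the proton pump, fell 4.13-fold, Lipa, the acid lipase, 1.73-fold, Gaa 1.66-fold, and Tfeb, which encodes a master regulator of lysosome genes, 1.74-fold, while the protease Ctsc rose 1.67-fold. Of 24 receptors for debris and dying cells, 13 fell and 6 rose. Mrc1, the mannose receptor, varied among arrays, from 9.76 to 11.28 without LPS and from 7.37 to 9.57 with LPS, and fell 3.46-fold with no overlap. The dying-cell receptor Mertk fell from 10.93, 10.99, 10.94 and 10.80 to 9.88, 9.85, 9.71 and 9.64, and its ligand Gas6 fell 3.52-fold. Itgb5, an integrin subunit of dying-cell uptake, fell 3.65-fold. Marco, which binds bacteria, and Timd4, which binds phosphatidylserine, rose 11.3-fold and 7.9-fold.

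Of 30 replication and mitosis genes, 15 fell and 2 rose, 1 of them without unstimulated array 4 or LPS array 1. Cyclin D1 (Ccnd1) fell from 9.99, 9.94, 10.08 and 9.72 to 7.92, 8.44, 8.21 and 7.89, and the replication helicase subunits Mcm6 and Mcm7 fell 3.26-fold and 2.63-fold. Mki67, the proliferation marker, went the other way, from 7.82, 8.42, 8.99 and 8.64 to 10.36, 10.47, 10.84 and 10.47 (4.19-fold). The groups of these genes did not overlap. Among lineage factors, Cebpa, which directs myeloid differentiation, fell from 10.60, 10.35, 9.98 and 10.25 to 7.99, 7.87, 7.75 and 8.19 (5.08-fold), while its relatives Cebpd and Cebpb rose 4.54-fold and 2.41-fold. Pparg and Rxra, nuclear receptors that act as a pair, fell 3.5-fold and 3-fold. Csf1r, the receptor of the macrophage growth factor, was at 13.04 and 12.87 and not called. Of 18 TREM and C-type lectin genes, 6 rose and 4 fell: Clec4e, a receptor of mycobacterial glycolipid, rose 9.15-fold and Trem2, a lipid receptor, fell 2.04-fold.

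Adhesion genes rose in 10 and fell in 5 of 20 cases, with Itgb8, an activator of TGF-beta, 16.2-fold up, Icam1, a ligand of leukocyte integrins, 4.47-fold up and the laminin receptor subunit Itga6 6.63-fold down. The matrix protease Mmp14 rose 14.3-fold and the proteoglycan Vcan 6.63-fold, while the inhibitor Timp2 fell 2.71-fold. Complement factor Cfb rose 10.1-fold and Cd55, which protects cells from complement, 4.92-fold. Of 16 complement genes, 4 rose and 1 fell, against 12% and 12.7% of all genes. The other 11, C1qa and C1qb among them, were not called. Of 13 purinergic genes, 3 rose and 6 fell. Entpd1, the ectoenzyme CD39 that removes ATP, fell 6.32-fold and P2rx7, an ATP-gated channel, 2.3-fold. The oxysterol receptor gene Gpr183 fell 5.96-fold. Of 15 clock genes, 7 fell, with Bhlhe41 at 2.79-fold, and 2 rose, with the repressor Cry1 at 2.41-fold. Semaphorin genes rose in 3 and fell in 4 of 16 cases, against 12% and 12.7% of all genes, with Sema4a 4.35-fold up and Nrp1 2.92-fold down. Unfolded protein genes moved in 8 of 20 cases, 4 in each direction, with Ppp1r15a, which reverses the translation block, 5.62-fold up and the sensor Ern1 2.03-fold down.

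Of 18 amino acid transporter genes, 7 rose and 5 fell. Slc7a5, which brings in leucine, rose 2.44-fold beside Slc7a11 and Slc7a2, and the lysosomal Slc36a1 fell 4.33-fold. In the coagulation list 5 of 17 rose and 3 fell: Serpinb2, an inhibitor of plasminogen activators, rose 7.74-fold and factor X (F10) 3.51-fold, and Thbd, the thrombin receptor thrombomodulin, and Plau, the plasminogen activator urokinase, fell 2.25-fold and 2.14-fold. Of 12 heat shock genes, 5 rose, with Hsp90aa1 at 1.79-fold, and 0 fell. Markers of alternative activation, the state set by interleukin-4, were called in 4 of 16 cases, near the 24.7% of all genes, with Mrc1 and Pparg among 3 falls. The rise of the chemokine Ccl22 (2.72-fold) was not called without unstimulated array 1 or 3 or LPS array 1 or 2, nor was the fall of the interleukin-4 receptor gene Il4ra (1.38-fold) without unstimulated array 1, 3 or 4 or LPS array 1, 2 or 3. Chil3, Retnla and Arg1, the markers most used for this state, had mean levels between 4.68 and 5.81 in both groups and were not called.

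The wild-type arrays allow a comparison of responses between the genotypes, which largely coincide with the sex-linked transcripts described above. In wild-type cells 6132 genes were called (30.8% of those tested), 2786 higher with LPS (14%) and 3346 lower (16.8%), and 1627 of them changed at least 2-fold (8.16%), 697 upwards (3.5%) and 930 downwards (4.66%). Across the 19937 genes, the changes of KO and wild-type cells had a Pearson r of 0.9, given as a description because genes share arrays and are not independent. Of the 670 genes that rose at least 2-fold in KO cells, 500 did so in wild-type cells (74.6% of 670, and 71.7% of the 697 of wild type). Of the 584 that fell at least 2-fold, 524 did so in wild type (89.7% of 584, and 56.3% of 930). No gene of the 670 was called lower in wild type, and none of the 584 higher. The difference between the responses was itself called for 257 genes (1.29% of those tested), with 197 more positive in KO cells (0.988%) and 60 more negative (0.301%), a split of 138 and 70 after quantile normalization. At least 2-fold were 110 differences (0.552%), 68 positive (0.341%) and 42 negative (0.211%). Of the 670 genes chosen by their rise in KO cells, 47 had a more positive and 26 a more negative response in KO cells, while of the 697 chosen by their rise in wild type the counts were 18 and 48. These counts follow the group used for choosing, and 597 and 631 genes were not called. The count of 197 depended on single arrays. It was 101 without unstimulated KO array 1, 106, 122 and 104 without LPS-treated KO arrays 1, 2 and 3, and 97 and 93 without unstimulated and LPS-treated wild-type arrays 2. The count of 60 was 39 without unstimulated wild-type array 2. In the 10 arrays with Xist above Kdm5d, where each KO group has 1 array that is assumed to vary like the wild type, 2 genes were called in each direction. The genes named next kept their call without any single array.

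**Figure D3:**
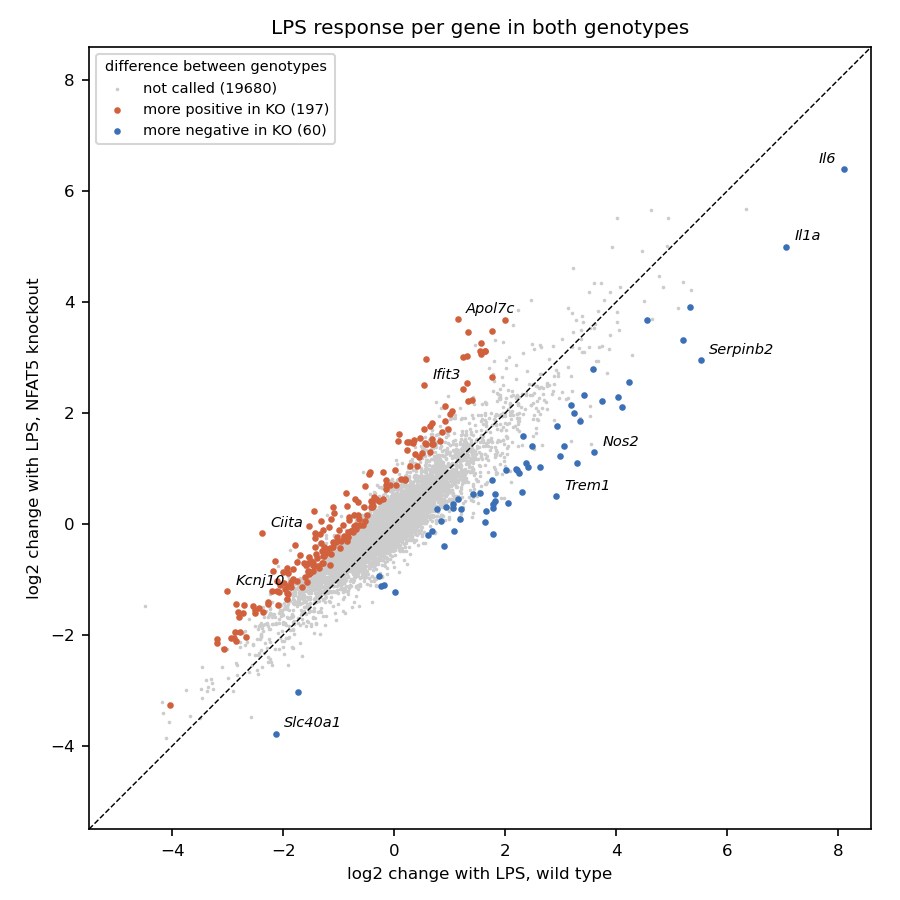
Log2 change with LPS of 19937 genes in wild-type cells (horizontal) and KO cells (vertical), with a dashed line where both are equal. The 60 genes with a more negative response in KO cells (blue) include Il6, Il1a and Nos2 below the line, and the 197 with a more positive one (orange) include Apol7c, Ifit3, Ciita and Kcnj10 above it.

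More negative responses in KO cells were called in 7 of 26 cytokine genes, 4 of 23 early response genes, 3 of 17 coagulation genes, 3 of 17 iron genes and 2 of 11 nitric oxide and arginine genes, against 0.301% of all genes. The cytokine count was 4 without LPS-treated KO array 1 or 2, without unstimulated wild-type array 2 or among the arrays numbered 1 to 3, and Arg2 in the last list lost its call without any of 11 single arrays. In the 10 arrays with Xist above Kdm5d each of these counts was 0. Nos2 started at 6.75 in both genotypes and reached 8.05 ± 0.41 (SD, n = 4) with LPS in KO cells against 10.35 ± 0.23 in wild type, a difference in response of -2.29 (SE 0.23, limma adjusted p = 7.35e-05). It was -1.83 in the 10 arrays with Xist above Kdm5d (limma adjusted p = 0.0695). Il6 reached 10.82 ± 0.20 against 12.35 ± 0.18, a difference in response of -1.71 (limma adjusted p = 2.11e-04), and Il1a 10.86 against 12.54 (-2.07). All 4 LPS arrays of KO cells were below all 4 of wild type in Nos2, Il6 and Il1a. Serpinb2 reached 8.93 against 11.52 (-2.58), and Plaur, the urokinase receptor, 9.59 against 11.08 (-1.66). Lcn2 reached 9.98 against 11.89 (-1.89), Olr1, a receptor for oxidised lipoprotein, 7.45 against 9.58 (-2), and Edn1, which encodes endothelin, 8.25 against 9.91 (-1.53). Among the arrays numbered 1 to 3 the difference of Il1a was not called (-2.23, limma adjusted p = 0.0571). Some genes rose in wild-type cells and were not called in KO cells. Trem1, which amplifies inflammation, was at 5.27 and 5.76 in KO cells and at 5.30 and 8.22 in wild type (-2.43), and its KO change was called when the 8 KO arrays were fitted alone (0.50, limma adjusted p = 0.0366). Fosl2, a part of AP-1, was at 9.01, 9.01, 8.89 and 9.08 without LPS and 9.12, 8.95, 8.95 and 9.09 with LPS in KO cells, while wild-type cells went from 8.76 to 10.40 (-1.61). Osm, a cytokine related to interleukin-6, was at 7.53 and 7.40 in KO cells and at 7.56 and 8.64 in wild type (-1.21). In the 10 arrays the differences of Il6, Il1a, Serpinb2, Trem1 and Fosl2 were -1.92, -1.81, -2.68, -2.5 and -1.62, and none of these was called there, while that of Olr1 was -2.71 and called (limma adjusted p = 0.0485).

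Larger rises in KO cells met interferon-stimulated genes, and the unstimulated levels of those named here were lower in KO cells. Usp18 went from 9.19 ± 0.39 to 12.31 ± 0.12 in KO cells and from 10.79 ± 0.40 to 12.43 ± 0.08 in wild type (SD, n = 4), a difference in response of 1.49 (SE 0.26, limma adjusted p = 0.0103). Ifit3 went from 9.66 to 12.16 against 11.01 to 11.55 (1.96), Mx2 from 6.60 to 9.72 against 7.50 to 9.04 (1.58), and Tap1 from 9.31 to 11.29 against 10.23 to 11.23 (0.98). Cd14 went from 10.58 to 12.61 in KO cells and from 11.78 to 12.82 in wild type (0.99). The unstimulated levels of KO cells relative to wild type were -1.61 for Usp18, -0.92 for Tap1 and -1.20 for Cd14, while with LPS they were -0.12, 0.06 and -0.21. For Ifit3 and Mx2 they were -1.35 and -0.90 without LPS and 0.61 and 0.68 with it, so these 2 genes ended higher in KO cells. Of the 29 antiviral genes, 12 had a larger rise in KO cells and 0 a smaller one, against 0.988% of all genes more positive and 0.301% more negative. That count fell to between 3 and 5 without any one of unstimulated KO arrays 1 and 3, LPS-treated KO arrays 1, 3 and 4, unstimulated wild-type arrays 1 and 2 and LPS-treated wild-type arrays 1 and 2. It was 7 after quantile normalization. In the 10 arrays with Xist above Kdm5d it was 0, with differences of 1.41 for Usp18, 1.88 for Ifit3 and 1.74 for Mx2.

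Responses of sterol genes differed between the genotypes too. Msmo1, a methyl sterol oxidase, went from 9.56 ± 0.19 to 10.46 ± 0.27 in KO cells and from 9.69 ± 0.08 to 9.25 ± 0.32 in wild type (SD, n = 4), so it rose in KO cells and was called lower in wild type (-0.45, limma adjusted p = 0.0297), where the groups overlapped. The difference was 1.35 (limma adjusted p = 0.00588), and 1.52 in the 10 arrays (limma adjusted p = 0.208). Fdft1 went from 8.29 to 9.79 against 8.71 to 8.78 (1.43), and this difference was not called among the arrays numbered 1 to 3 (1.48, limma adjusted p = 0.052). Of the 20 cholesterol synthesis genes, 5 had a more positive response in KO cells, against 0.988% of all genes. That count was 3 without LPS-treated KO array 3, without unstimulated wild-type array 3 or without LPS-treated wild-type array 2, 2 among the arrays numbered 1 to 3 and 0 in the 10 arrays. In wild-type cells 7 of the 20 rose and 5 fell.

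Falls were smaller in KO cells for a further set. Kcnj10, a potassium channel, went from 10.53, 10.69, 10.74 and 10.66 to 9.55, 9.56, 9.19 and 9.49 in KO cells, and from 10.41 ± 0.26 to 7.40 ± 0.11 (SD, n = 4) in wild type. The difference was 1.80 (limma adjusted p = 5.32e-05). Its groups did not overlap in either genotype, and every KO array with LPS was above every wild-type array with LPS. Sesn1, a stress-induced inhibitor of mTORC1, reached 10.08 in KO cells and 8.67 in wild type from starts of 11.52 and 11.54 (1.42). The amino acid carrier Slc43a2 changed by -1.58 in KO cells and by -2.82 in wild type, and the desaturase Fads1 by -1.60 and -2.51. Ciita fell by 2.39 in wild type, from 9.40 to 7.01, and was already at 7.52 in unstimulated KO cells (difference in response 2.22, limma adjusted p = 5.32e-05). Ptger4, a prostaglandin E2 receptor, and Tlr9, a sensor of bacterial DNA, fell by 1.44 and 1.42 in wild type and were not called in KO cells (differences 1.67 and 1.25). Both started lower in KO cells, by -0.65 and -0.85 relative to wild type. With LPS the levels of KO cells relative to wild type were 1.03 and 0.41. In the 10 arrays the differences of Kcnj10 and Ciita were 1.84 and 2.17, both with a limma adjusted p of 0.0995. Apol7c, an apolipoprotein L gene, had the largest positive difference among called genes (2.54). It rose from 5.96 to 9.65 in KO cells and from 5.73 to 6.88 in wild type. The KO rise was 2.59 in the arrays numbered 4 and 4.06 in those numbered 1 to 3, and the KO arrays with LPS spanned 2.06. The difference was 1.44 in the 10 arrays.

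**Figure D4:**
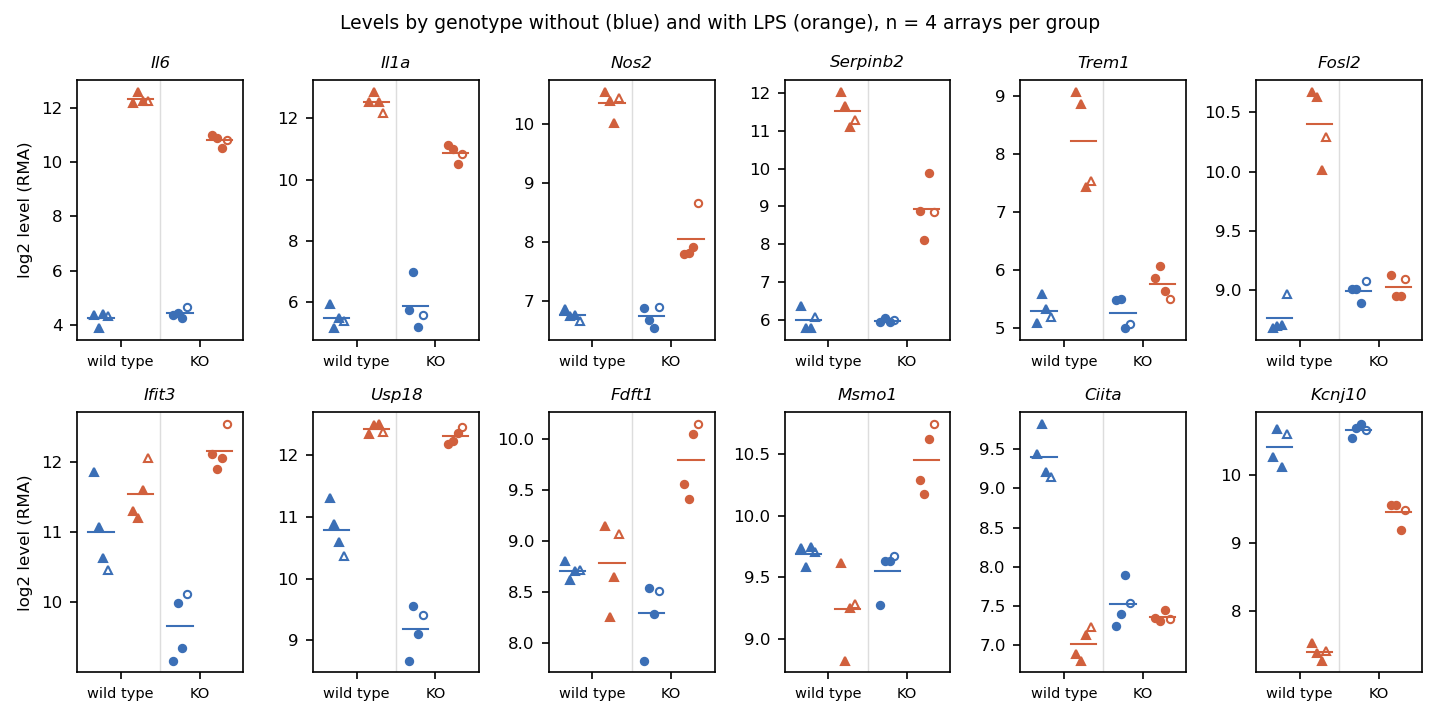
Log2 levels (RMA values) of 12 genes in all 16 arrays, without LPS (blue) and with LPS (orange), triangles for wild type, circles for KO, open symbols for the arrays numbered 4 and lines at the group means of 4 arrays. Il6, Il1a, Nos2, Serpinb2, Trem1 and Fosl2 end lower in KO cells with LPS, Ifit3 and Usp18 start lower without it, and Kcnj10 ends higher.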

How the data were processed

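RNA of 16 samples of mouse bone marrow-derived macrophages was measured on 1-colour arrays. The deposited values are log2 levels per probe set, summarised by RMA per the submitters' processing notes; the version, build and annotation were not given there. RMA quantile-normalises arrays together, which assumes like overall distributions. Of 34760 probe sets, 21640 had 1 gene symbol, 1321 several and 11799 none in the platform table; only the first were used, and 21553 matched RefSeq's gene table (GRCm38.p6). For the 954 of 19937 genes with several probe sets, the brightest is shown.

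Contrasts were fitted over all 16 arrays, with 1 mean per group and 12 residual degrees of freedom, with limma 3.58.1 (lmFit, eBayes; R 4.3.3) and Benjamini-Hochberg adjustment over all genes, and tested on simulated data. A gene was called at an adjusted p under 0.05. The genes named were the 20 largest rises and falls among called genes without overlap, members of 43 gene lists, and the 15 largest differences between genotypes in each direction, without predicted genes, clones, small RNAs, gene segments or tandem copies. Members and lists were chosen with earlier results of these data known. Alternatives were the arrays fitted, the replicate number as a block, normalization, dim genes, probe sets and the variance prior. No KO arrays were duplicates, as the SD of their differences was 0.172 to 0.378 within groups. Wild-type arrays were not compared in this way. The number of arrays limits the precision.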

Additional observations from a re-analysis of the deposited data

Results flagged for a closer look

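In 500 groups of 4 KO arrays (250 named genes, with and without LPS), 1 array stood apart in 25, where its gap to the next array, divided by the range of the group, passed Dixon's critical value at the 95% level. Chance alone gives about 1 in 20 groups. Array 4 stood apart in 13, array 1 in 8, array 3 in 3 and array 2 in 1. What sets these arrays apart was not tested.

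Array 4 was high for Xist in both groups (ratio 0.974 without LPS and 0.934 with it). Among unstimulated arrays it was also high for Cd28 (10.50 against 10.15 in the next array, ratio 0.913), Cxcl5 (5.71 against 5.40, 0.9) and Ccl24 (6.71 against 6.47, 0.833), and low for the chaperone gene Hspa1a (6.75 against 7.19, 0.852) and the receptor gene Timd4 (7.10 against 7.95, 0.888). With LPS, array 4 was high for Tlr3 (10.20 against 9.63, 0.852), Rela (11.64 against 11.29, 0.849), Il10 (7.53 against 6.33, 0.873) and Nos2 (8.67 against 7.91, 0.877), and low for Tbxas1 (8.27 against 8.44, 0.877) and the glucose carrier gene Slc2a1 (11.79 against 12.30, 0.897).

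Unstimulated array 1 was the low one in all 8 of its cases: Cxcl2 (7.96 against 8.64, ratio 0.837), Nfkbiz (8.26 against 8.93, 0.947), Relb (7.83 against 8.49, 0.834), Ebi3 (9.49 against 9.87, 0.856), Gsdmd (8.26 against 8.55, 0.84), Tfeb (9.42 against 9.62, 0.846), Clec4e (9.20 against 10.28, 0.873) and Msmo1 (9.28 against 9.64, 0.898). Of these, all but Tfeb rose with LPS. Array 3 was low with LPS for Cdh5 (6.19 against 6.37, 0.893) and Lta4h (7.25 against 7.45, 0.837) and high without it for Slc2a3 (8.09 against 7.78, 0.857). Array 2 was high with LPS for Nfkbie (11.19 against 11.08, 0.853).

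The LPS responses of KO and wild-type cells differed, by the test of the difference in limma, for 197 genes with a more positive and 60 with a more negative value in KO cells. Among the named genes, those more positive in KO cells were, as log2 differences, the antiviral genes Ifit2 (2.12), Ifit1 (1.70), Mx1 (1.67), Cmpk2 (1.48), Ifih1 (0.88) and Ddx58 (0.80). They were also the sterol genes Sqle (1.18) and Dhcr7 (0.81), the lipase gene Lipa (1.14), the receptor genes Ccr2 (1.24) and P2rx7 (1.01), Sema4a (1.20), the message decay gene Zfp36l2 (1.07), the desaturase gene Fads1 (0.91) and the carrier genes Slc43a2 (1.24), Slc2a6 (0.83) and Slc46a3 (0.78). Those more negative were Arg2 (-1.72), Csf2 (-1.67), the iron exporter gene Slc40a1 (-1.64), Csf3 (-1.43), Slc7a11 (-1.42), Il1rn (-1.04) and Cxcl1 (-0.88).

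Named with the comparison of genotypes were also Apol7c 2.54, Ciita 2.22, Ifit3 1.96, Kcnj10 1.80, Ptger4 1.67, Mx2 1.58, Usp18 1.49, Fdft1 1.43, Sesn1 1.42, Msmo1 1.35, Tlr9 1.25, Cd14 0.99 and Tap1 0.98. On the negative side they were Serpinb2 -2.58, Trem1 -2.43, Nos2 -2.29, Il1a -2.07, Olr1 -2, Lcn2 -1.89, Il6 -1.71, Plaur -1.66, Fosl2 -1.61, Edn1 -1.53 and Osm -1.21. Of all 48 named genes, 18 lost the call when some single array was left out: Il1rn, Csf2, Ddx58, Slc46a3, Slc7a11, Arg2, Ifih1, Lipa, Cmpk2, P2rx7, Ifit1, Ifit2, Mx1, Slc2a6, Csf3, Ccr2, Sqle and Slc40a1.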

How the results depend on the processing

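The counts of 2394 genes higher and 2525 lower with LPS in KO cells stayed within 1.5 times of these values under every alternative, single arrays left out included, except in the 10 arrays with Xist above Kdm5d, chosen after seeing the data, where they were 948 and 1014. The counts of 197 more positive and 60 more negative responses in KO cells ranged from 93 to 211 and from 39 to 85 when single arrays were left out. They were 2 and 2 in the 10 arrays, where each KO group has 1 array, and the positive count was 95 among the arrays numbered 1 to 3. With the replicate block the calls of the KO response numbered 5555 over 16 arrays and 5251 over the 8 KO arrays, of which 4840 and 4691 were shared with the 4919, and the genotype differences numbered 385 and 113. Whether the numbers pair the samples is not labelled, and they were not treated as pairs: deviations of unstimulated and LPS-treated KO arrays of the same number correlated at -0.06, 0.43, 0.14 and 0.56. Numbers 2 and 4 correlated best with their own number, and unstimulated arrays 1 and 3 with LPS arrays 3 (0.18) and 1 (0.25). The cause of these shifts was not tested.

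Over 250 named genes and all alternatives, the KO response was compared 4480 times: 4419 kept direction and call, 51 lost the call, 10 gained it and 0 reversed. Of the losses, 38 were in the 10 arrays, and the others were those of Myc, Ccl22 and Il4ra. Calls were gained by Csf2, Arg2 and Trem1 in fits of the 8 KO arrays, by Csf3 and Ccl17 in the replicate block fit of these arrays, and by Kdm5d among the arrays numbered 1 to 3 or without unstimulated array 4. Of 48 named genotype differences, 30 kept their call without any single array. Of 1146 comparisons 227 lost the call and 0 reversed. Median centring of the arrays moved the median KO change of all genes from 0.01 to 0.054.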
